A study of Mus musculus with 92 samples.

Results

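The plasminogen activators Plau and Plat, the urokinase receptor Plaur and the inhibitor Serpine2 were examined across all 92 RNA-seq libraries of a mouse intestinal study of Eif4g2, which encodes a translation initiation factor of the eIF4G family. The 4 genes were found by gene symbol among 54532 annotated genes in the deposited count tables, and each symbol matched 1 gene. The members were chosen by name with results of these data already known, and Plau had already stood out in flox/flox fetal spheroids given 4-OHT. Comparisons that use those libraries are therefore treated as part of the choice, and their values for the members are a description with no p. In the other comparisons an adjusted p gives the place of a gene in a fit of all genes and is no independent evidence for the choice. Of the 4, Serpine2 alone is an inhibitor, and Serpinb2 and Serpinf2, which encode inhibitors too, are described below as further genes of the pathway.

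Plasminogen is a circulating proenzyme that is cleaved to plasmin, a broad serine protease that dissolves fibrin and cleaves extracellular matrix. Urokinase, encoded by Plau, and tissue-type plasminogen activator, encoded by Plat, make that cut. The urokinase receptor, encoded by Plaur, is a lipid-anchored protein that holds urokinase at the cell surface, and Serpine2 (protease nexin-1) is a serpin that inhibits both activators and thrombin. In epithelia the urokinase pathway is known for its induction at wound edges and in migrating cells.

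The tissue libraries were made from small-intestinal crypts and villi of mice given tamoxifen. Mice with Rosa26(CreER), a driver active in most cell types, were sampled at day 9 and were either Eif4g2(flox/+), called heterozygous here, or Eif4g2(flox/flox), called homozygous. Crypts came from 5 heterozygous and 4 homozygous Rosa26 mice and villi from 5 and 5. Mice with Vil1(CreER), a driver of the intestinal epithelium, were sampled at 3 months after 4 daily injections of 100 mg/kg tamoxifen, with crypts from 4 heterozygous and 3 homozygous mice and villi from 4 and 6. The heterozygous controls therefore also lose 1 copy of Eif4g2 and also carry CreER and received tamoxifen.

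Cultured cells came as adult organoids and fetal spheroids, all carrying Rosa26(CreER) and all kept in ENR medium, which supplies EGF, Noggin and R-spondin. In the first organoid set, 3 Eif4g2(flox/flox) lines received DMSO or 0.5 µM 4-OHT, the active form of tamoxifen, for 24 h and were collected at day 6. In the second set, 4 Eif4g2(flox/flox), 4 Eif4g2(flox/+) and 4 Eif4g2(+/+) organoid libraries, the last with CreER alone, were all given 4-OHT. Fetal spheroids, the immature form in which fetal gut epithelium grows, comprised 6 flox/flox and 5 flox/+ lines, each with DMSO and with 4-OHT. In the labels a spheroid line is named by a number and a letter, and several lines share the number. Some shared numbers occur in both genotypes and others in a single genotype. The fits count every line as separate, and the part of a shared origin in the spheroid results was not tested. In a set of 4 organoid lines DMSO or 3, 5 or 10 µM A-485 was given for 4 days without 4-OHT. Of those lines 1 was Eif4g2(+/+) and 3 were flox/flox with the gene intact, and 1 of these 3 is also line 1 of the first organoid set. A-485 inhibits the acetyltransferase activity of p300 and CBP, coactivators that acetylate histones at enhancers.

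Reads assigned to genes numbered 22458821 to 37611126 per tissue library and 8652040 to 32352542 per culture library. Levels are given in CPM, a gene's reads per 1000000 reads assigned to genes, after scaling between the libraries of a set. Differences are log2 fold changes with standard errors (SE) from edgeR's quasi-likelihood test, with Benjamini-Hochberg adjustment over all tested genes and a threshold of 0.05. Eif4g2 was lower in every homozygous or 4-OHT-treated flox/flox group with no overlap, for example 85.7 ± 13.8 CPM (SD, n = 4) against 350 ± 7.60 (SD, n = 5) in Rosa26 crypts. Its log2 fold change ranged from -0.99 in Vil1 crypts to -2.82 in flox/flox spheroids, and no dose of A-485 called it. Epithelial marker genes were abundant in every library, with summed levels from 3876 to 20250 CPM.

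**Figure D1:**
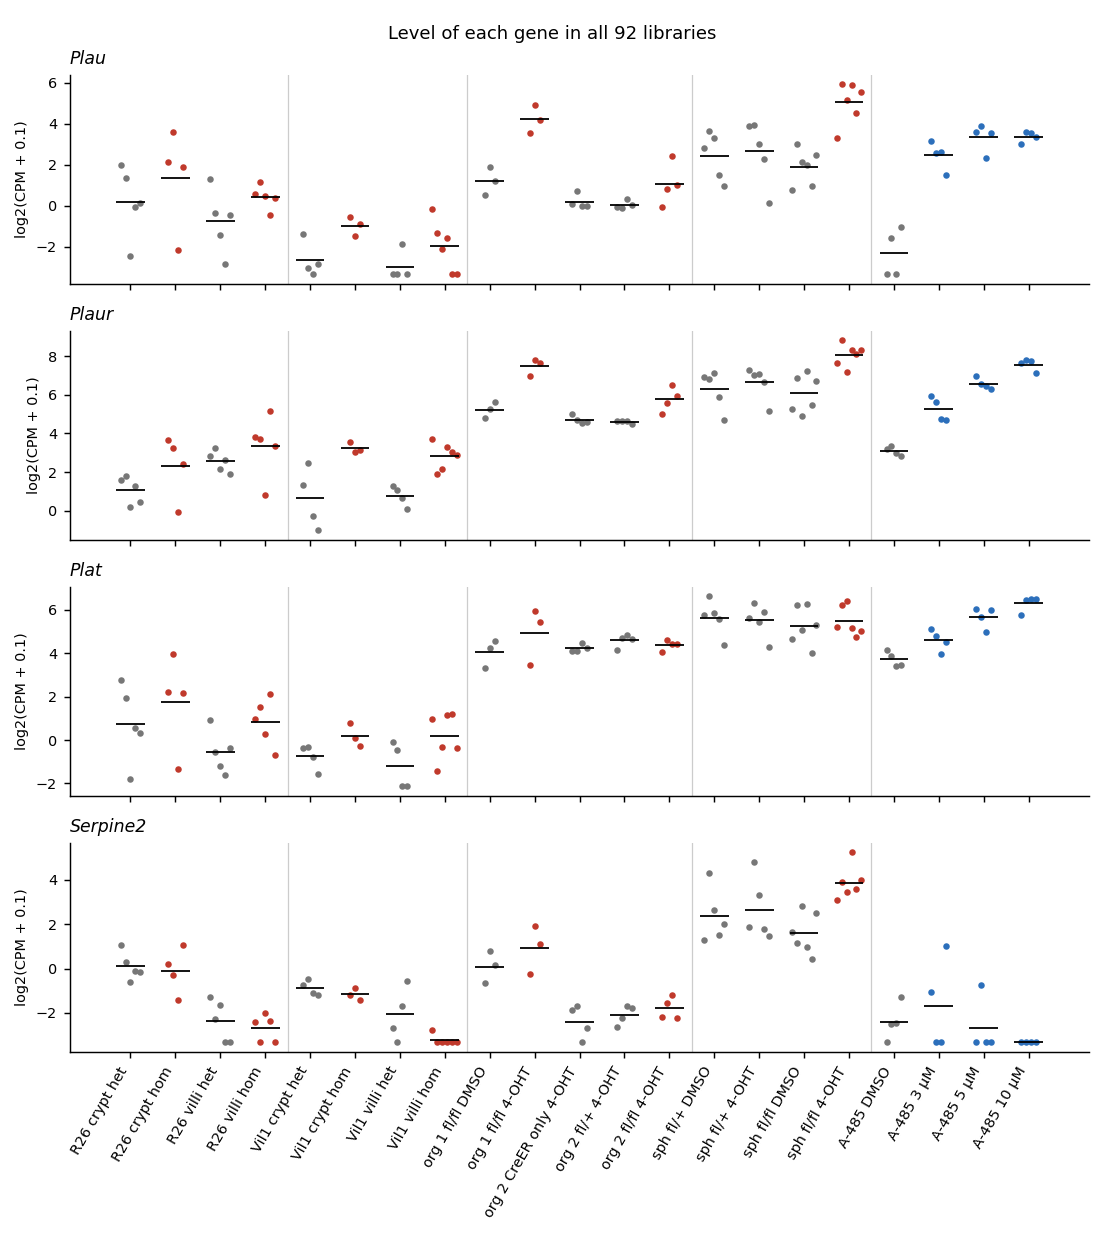
Level of Plau, Plaur, Plat and Serpine2 as log2(CPM + 0.1) in each of the 92 libraries, by group; the black line is the group mean. Red points are homozygous tissue and flox/flox cultures with 4-OHT, blue points A-485, grey points all other groups; the group mean of Plat is higher in every culture group than in any tissue group, and Plau and Plaur are highest in flox/flox spheroids with 4-OHT.

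Per kilobase of gene length, the scale on which genes can be compared, Plaur was the most abundant of the 4 in all 21 groups. Its mean ran from 0.647 CPM per kb in heterozygous Vil1 villi to 109 CPM per kb in flox/flox spheroids with 4-OHT. Plat was second in most culture groups, with 7.10 ± 4.13 CPM per kb (SD, n = 6) in flox/flox spheroids with DMSO against 1.77 ± 1.00 for Plau. With 4-OHT the order of the activators turned in 2 culture groups. Plau stood at 16.4 ± 8.57 CPM per kb and Plat at 7.87 ± 4.05 in flox/flox spheroids (SD, n = 6). In the first organoid set they stood at 8.44 ± 4.04 and 6.18 ± 4.08 CPM per kb (SD, n = 3), which did not differ beyond their spread. Serpine2 was last in every culture group.

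The genes lie apart in the genome (GRCm38). Plau spans chr14:20836660-20843385 on the plus strand, Plaur chr7:24462484-24475968 on the plus strand, Plat chr8:22757727-22782844 on the plus strand and Serpine2 chr1:79794197-79861180 on the minus strand. No other GENCODE vM21 gene overlaps any of them. Plaur is the member called in the most comparisons, and its promoter is shown for that reason. The RefSeq table (GRCm38.p6) held promoters of 2 of the 4 members, Plaur and Serpine2. The 250 bases before the Plaur start lie at chr7:24462233-24462482 on the plus strand, with capitals marking the single match to the AP-1 motif TGANTCA, a palindrome searched on both strands:
Plaur: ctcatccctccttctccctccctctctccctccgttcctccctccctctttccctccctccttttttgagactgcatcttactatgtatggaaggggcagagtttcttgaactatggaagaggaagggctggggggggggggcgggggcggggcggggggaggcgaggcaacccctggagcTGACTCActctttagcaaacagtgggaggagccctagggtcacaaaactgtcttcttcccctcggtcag
The match TGACTCA begins 69 bases before the start. Of 32851 promoter windows of the same length, 6.75% hold at least 1 such match. The TEAD motif GGAATG, searched on both strands, has no match in the Plaur window, and 12.6% of windows hold one. The Serpine2 window holds neither. A match to these letters is a description of the sequence and not a measured binding site.

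In flox/flox adult organoids of the first set the urokinase gene and its receptor were higher with 4-OHT. That set held no control genotype given 4-OHT, so deletion of Eif4g2 and 4-OHT itself cannot be told apart in it. In the 3 lines of the first set, Plau stood at 3.56, 2.22 and 1.33 CPM with DMSO and at 30.4, 17.9 and 11.6 CPM with 4-OHT. The groups did not overlap, and every line moved by nearly the same amount, 2.98 to 3.07 on the log2 scale. The fitted rise was 8.28-fold (log2 3.05 ± 0.46 SE, edgeR adjusted p = 0.00273). Plaur went from 38.0, 49.8 and 28.0 CPM to 223, 201 and 125 CPM, again without overlap, a rise of 4.72-fold (log2 2.24 ± 0.28 SE, edgeR adjusted p = 0.00138). These were 2 of 4 members called, against 35.4% of all tested genes.

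The other activator and the inhibitor overlapped between the treatments in the same lines. Plat stood at 18.7, 23.7 and 9.91 CPM with DMSO and at 61.3, 43.4 and 11.1 CPM with 4-OHT. It was higher with 4-OHT in 3 of 3 lines, but the third line hardly differed, and the unblocked test did not call it (log2 1.14 ± 0.58 SE, edgeR adjusted p = 0.172). Serpine2 stood at 1.62, 1.01 and 0.531 CPM with DMSO and 3.70, 2.05 and 0.744 CPM with 4-OHT (log2 1.01 ± 0.61 SE, edgeR adjusted p = 0.241). Since both libraries of a pair come from 1 line, the fit with the line as a block is also given. It called Plat (log2 0.96, edgeR adjusted p = 0.0339) and Serpine2 (log2 0.98, edgeR adjusted p = 0.019) besides Plau and Plaur. The share of all genes called in this fit is not given here, so nothing is read from the number of members.

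In the second organoid set all libraries had received 4-OHT, and the receptor again rose in flox/flox cultures. Plaur stood at 32.6, 25.6, 23.2 and 24.0 CPM in CreER-only organoids and at 24.6, 24.5, 24.5 and 22.1 CPM in flox/+ organoids. In flox/flox organoids it stood at 32.6, 47.8, 91.8 and 61.6 CPM. The lowest flox/flox library thus lay at the level of the highest CreER-only library, and the other three lay above all controls. Plaur rose 2.43-fold against flox/+ (log2 1.28 ± 0.26 SE, edgeR adjusted p = 0.00219) and 2.22-fold against CreER-only (log2 1.15 ± 0.26 SE, edgeR adjusted p = 0.00421).

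Plau in this set depended on 1 library. It stood at 0.866, 1.67, 5.31 and 1.91 CPM in flox/flox organoids, at 0.858, 0.838, 1.15 and 0.940 CPM in flox/+ and at 0.980, 1.57, 0.906 and 0.879 CPM in CreER-only organoids. The difference was called against flox/+ (log2 1.35 ± 0.44 SE, edgeR adjusted p = 0.0206) and against CreER-only (log2 1.15 ± 0.43 SE, edgeR adjusted p = 0.0414). Without flox/flox replicate 3 it was 0.64 (edgeR adjusted p = 0.153) and 0.44 (edgeR adjusted p = 0.325). Plat stood between 16.46 and 28.8 CPM in all 12 libraries, with a log2 difference of -0.23 ± 0.14 SE against flox/+ (edgeR adjusted p = 0.199). Serpine2 was too low to be tested, with 14, 12 and 9 reads in all in flox/flox, flox/+ and CreER-only organoids. In both comparisons of flox/flox organoids 2 of 3 tested members were called, against 46.8% of genes for flox/+ and 45.3% for CreER-only controls. Loss of 1 copy gave no called member of 3 tested between flox/+ and CreER-only organoids, where 0.113% of genes were called. In that comparison 1 member, Plat, and 1481 of 14220 genes had an unadjusted p under 0.05 in edgeR, and DESeq2 called 0 members.

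**Figure D2:**
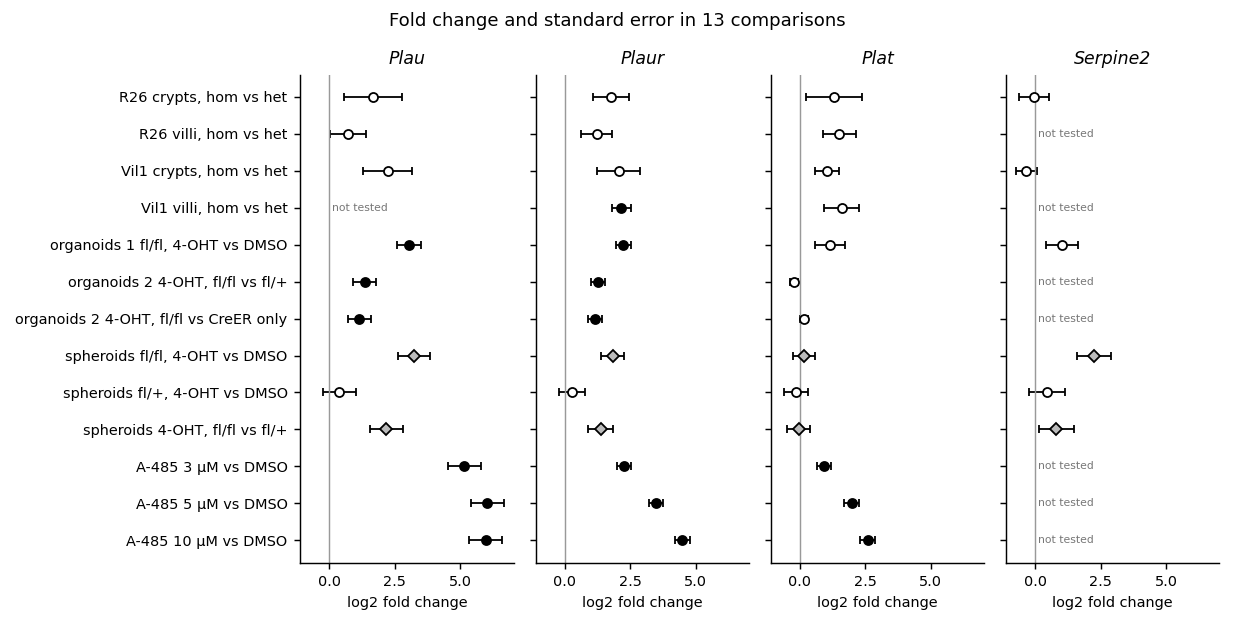
Log2 fold change of each gene in 13 comparisons, with bars of 1 SE; filled circles have an adjusted p under 0.05 in edgeR, open circles do not, and grey diamonds are the 2 comparisons with flox/flox spheroids given 4-OHT, shown as a description. Plau and Plaur lie to the right of 0 in every deletion and A-485 row in which they were tested, while Plat lies near 0 in spheroids and in the second organoid set.

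Fetal spheroids held more Plau, Plaur and Serpine2 than adult organoids of the same genotype. In flox/+ libraries with 4-OHT, Plau stood at 14.9, 15.03, 7.99, 4.84 and 1.00 CPM in spheroids against the 0.838 to 1.15 CPM of organoids, with 4 of 5 spheroid lines above that range (log2 3.19 ± 0.69 SE, edgeR adjusted p = 0.000569). Plaur was 157, 131, 133, 101 and 35.3 CPM in those spheroids, all above the organoid libraries (log2 2.22 ± 0.48 SE, edgeR adjusted p = 0.000596). Serpine2 showed the widest gap, at 3.63, 28.0, 9.96, 3.37 and 2.66 CPM in spheroids and at most 0.209 CPM in organoids (log2 5.96 ± 0.91 SE, edgeR adjusted p = 7.29e-06). Without spheroid line 2, the highest, the difference was 5.00 (edgeR adjusted p = 2.09e-05). Plat, at 50.0, 78.8, 44.0, 60.8 and 19.6 CPM, missed the threshold (log2 1.05 ± 0.42 SE, edgeR adjusted p = 0.0505). Thus 3 of 4 members were called, against 37.9% of genes. Culture type and library series cannot be told apart here.

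Spheroid lines held different amounts of stromal marker transcripts. The summed level of 8 fibroblast markers ranged from 12.1 to 196 CPM over the flox/+ spheroids with 4-OHT, and from 6.49 to 10.8 CPM over flox/+ organoids. The highest sum belonged to line 2, which also had the highest Serpine2 of that group. Of all spheroid libraries Serpine2 was highest in flox/flox line 4 with 4-OHT, at 38.0 CPM, where the fibroblast sum was 1.40 CPM. Over the 22 spheroid libraries, as deviations from group means, Serpine2 and the fibroblast sum had a Pearson correlation of 0.502 and a Spearman correlation of 0.259. None of the 8 markers was at 0 throughout a spheroid group, whereas 3 to 6 of them were at 0 in all libraries of each organoid group. The part of stromal cells in these levels was not tested. In bulk libraries, fewer cells of a type and less RNA per cell cannot be told apart.

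Within the flox/flox spheroid lines, 4-OHT went with higher Plau in 6 of 6 lines. With DMSO the lowest, median and highest values were 1.59, 4.13 and 7.89 CPM, and with 4-OHT 9.91, 40.5 and 60.9 CPM, so the groups did not overlap. The log2 difference was 3.22 ± 0.62 SE, and 2.57 to 3.88 within lines. Plaur stood at 29.5, 75.1 and 147 CPM with DMSO and 142, 296 and 452 CPM with 4-OHT (log2 1.83 ± 0.45 SE), higher in 6 of 6 lines, though the highest DMSO library exceeded the lowest with 4-OHT. Serpine2 stood at 1.27, 2.56 and 7.10 CPM with DMSO and 8.37, 13.4 and 38.0 CPM with 4-OHT (log2 2.25 ± 0.65 SE). It too was higher in 6 of 6 lines, by 0.62 to 4.27, with the widest spread of the 3, and the log2 difference was 1.83 without line 4 in 4-OHT. Plat stood at 16.0, 36.4 and 77.4 CPM with DMSO and at 26.9, 36.5 and 86.3 CPM with 4-OHT, higher in 4 of 6 lines (log2 0.15 ± 0.42 SE). This comparison called 3 of 4 members and 19.1% of genes, and nothing is read from that count because it is treated as part of the choice of the members. Fibroblast markers summed to between 6.76 and 22.9 CPM with DMSO and between 0.420 and 7.56 CPM with 4-OHT.

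The flox/+ lines received the same 4-OHT and lose 1 copy of Eif4g2. Plau stood at 6.92, 12.4, 9.75, 2.74 and 1.88 CPM with DMSO and, as above, at 1.00 to 15.03 CPM with 4-OHT, higher in 3 of 5 lines (log2 0.37 ± 0.63 SE). Plaur was higher in 4 of 5 lines (log2 0.28 ± 0.48 SE), Serpine2 in 4 of 5 (log2 0.44 ± 0.68 SE) and Plat in 1 of 5 (log2 -0.14 ± 0.46 SE). None of the 4 was called, with edgeR adjusted p = 1 for each, and 0% of all genes were called. The edgeR fit gave 15 genes an unadjusted p under 0.05 and none of the 4 members, and DESeq2 called 0 genes. With DMSO none of 4 members and 0% of genes were called between the genotypes, with 1084 genes and no member at an unadjusted p under 0.05 in edgeR and 0 genes by DESeq2. The largest member difference there was Serpine2, lower in flox/flox lines (log2 -1.0 ± 0.66 SE, edgeR adjusted p = 0.796), and -0.11 without flox/+ replicate 2.

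The genotypes were also compared with 4-OHT, again with lines that share the number in their names counted as separate. This comparison uses the same flox/flox libraries with 4-OHT, so its values too are a description. Plau was higher in flox/flox lines by log2 2.17 ± 0.63 SE, Plaur by 1.37 ± 0.47 SE and Serpine2 by 0.81, while Plat differed by -0.04. The fit called 1 of 4 members, Plau, and 10.5% of genes, and the Plau call was lost in 8 of 16 alternative settings. Nothing is read from that count.

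The response to 4-OHT was compared between genotypes as the effect in flox/flox lines minus that in flox/+ lines, again as a description. Without the lines as a block no member was called in edgeR, against 1.62% of genes, with 2 members at an unadjusted p under 0.05 and 1 called by DESeq2. Each line gave both a DMSO and a 4-OHT library, and the edgeR fit with the line as a block called 3 of 4 members. It also called more of all genes than the unblocked fit. Nothing is read from either count, because the flox/flox libraries with 4-OHT are treated as part of the choice. In the blocked fit the extra response was 2.95 for Plau on the log2 scale, against 2.85 unblocked. It was 1.64 for Plaur, 1.96 for Serpine2 and 0.33 for Plat.

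**Figure D3:**
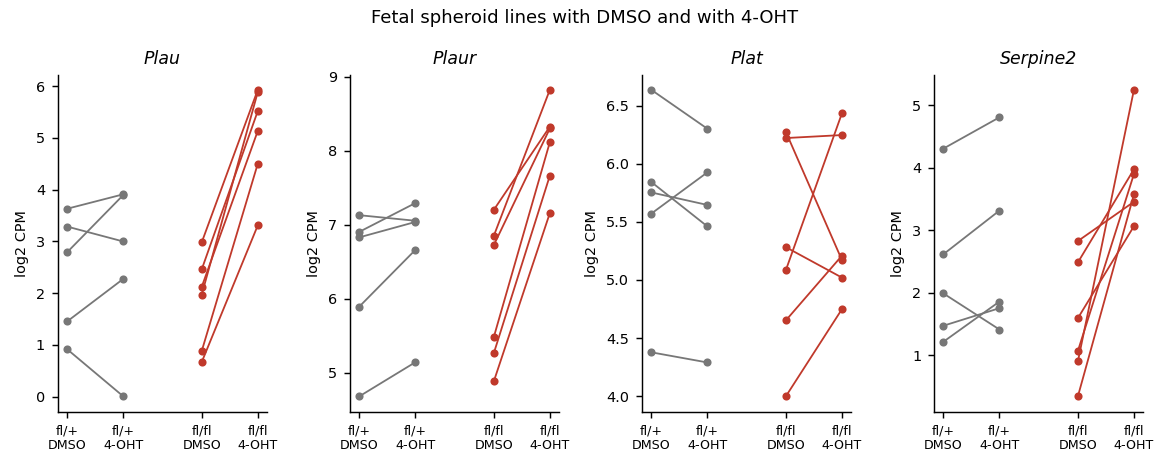
Log2 CPM of each gene in every fetal spheroid line with DMSO and with 4-OHT, joined by line; grey lines are the 5 flox/+ lines and red lines the 6 flox/flox lines. All 6 red lines slope upward for Plau, Plaur and Serpine2 and 4 of 6 for Plat, while 3 of 5 grey lines slope upward for Plau and 4 of 5 for Plaur and Serpine2.

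The receptor and both activators rose with A-485 in adult organoids whose Eif4g2 was intact. Plaur rose with each step in dose. The 4 lines stood at 8.92, 10.1, 7.91 and 7.11 CPM with DMSO and at 62.1, 49.7, 27.1 and 25.8 CPM with 3 µM. At 5 µM they reached 125, 94.7, 86.8 and 77.2 CPM, and at 10 µM 196, 218, 213 and 138 CPM. The 4 dose groups did not overlap. Against DMSO the rise was 4.82-fold at 3 µM (log2 2.27 ± 0.26 SE, edgeR adjusted p = 1.3e-05), 11.2-fold at 5 µM and 22.5-fold at 10 µM (log2 4.49 ± 0.28 SE, edgeR adjusted p = 5.42e-10). The steps from 3 to 5 µM (log2 1.22 ± 0.24 SE, edgeR adjusted p = 0.00161) and from 5 to 10 µM (log2 1.00 ± 0.24 SE, edgeR adjusted p = 0.00677) were called as well.

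Plau left the detection floor at the lowest dose, with no called step between neighbouring doses. With DMSO it had 0, 3, 0 and 5 reads in the 4 lines, or 0 to 0.386 CPM. At 3 µM it stood at 8.75, 5.86, 6.04 and 2.76 CPM, at 5 µM at 12.2, 14.9, 4.95 and 11.5 CPM, and at 10 µM at 7.88, 11.9, 11.8 and 10.1 CPM. Every treated library was above every DMSO library at each dose, with fitted log2 differences of 5.14 ± 0.63 SE, 6.03 ± 0.63 SE and 5.96 ± 0.63 SE (edgeR adjusted p = 1.8e-05, 4.56e-07 and 1.96e-07). The size of these folds rests on 8 reads in the DMSO libraries together. Neither step was called, at 0.89 ± 0.44 SE from 3 to 5 µM (edgeR adjusted p = 0.156) and -0.06 ± 0.43 SE from 5 to 10 µM (edgeR adjusted p = 0.949).

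Plat followed the dose with a smaller range. It stood at 17.9, 14.6, 10.7 and 11.0 CPM with DMSO, 34.8, 28.1, 15.7 and 23.0 CPM with 3 µM, 65.7, 51.7, 31.8 and 63.1 CPM with 5 µM and 54.5, 89.4, 89.6 and 90.1 CPM with 10 µM. At 3 µM the ranges overlapped and the call, at 1.88-fold (log2 0.91 ± 0.26 SE, edgeR adjusted p = 0.022), was lost in 4 of the fits that left out 1 library (largest edgeR adjusted p = 0.0885). At 5 µM it was 3.92-fold above DMSO and at 10 µM 5.98-fold (log2 2.58 ± 0.27 SE, edgeR adjusted p = 2.18e-07). The step from 3 to 5 µM was called (log2 1.06 ± 0.26 SE, edgeR adjusted p = 0.006). From 5 to 10 µM it was 0.61 ± 0.25 SE (edgeR adjusted p = 0.11), and 0.68 with the line as a block (edgeR adjusted p = 0.0445).

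Serpine2 was at or near 0 throughout these libraries and was not tested. The 4 lines together gave 6 reads with DMSO, 24 with 3 µM, 6 with 5 µM and 0 with 10 µM. A count of 0 over the 10 µM group allows up to 0.0583 CPM, from counting error alone. At each dose against DMSO 3 of 3 tested members were called, against 19.2% of genes at 3 µM, 49.6% at 5 µM and 62% at 10 µM. From 3 to 5 µM 2 of 3 were called against 24.5% of genes, and from 5 to 10 µM 1 of 3 against 18.9%. The 3 doses share their DMSO libraries. Fibroblast markers summed to 8.46 to 12.1 CPM with DMSO and 0.199 to 0.469 CPM with 10 µM. Of the 8 markers 5 were at 0 in all DMSO libraries and only 1 was high enough to be tested, so these sums rest on few genes.

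**Figure D4:**
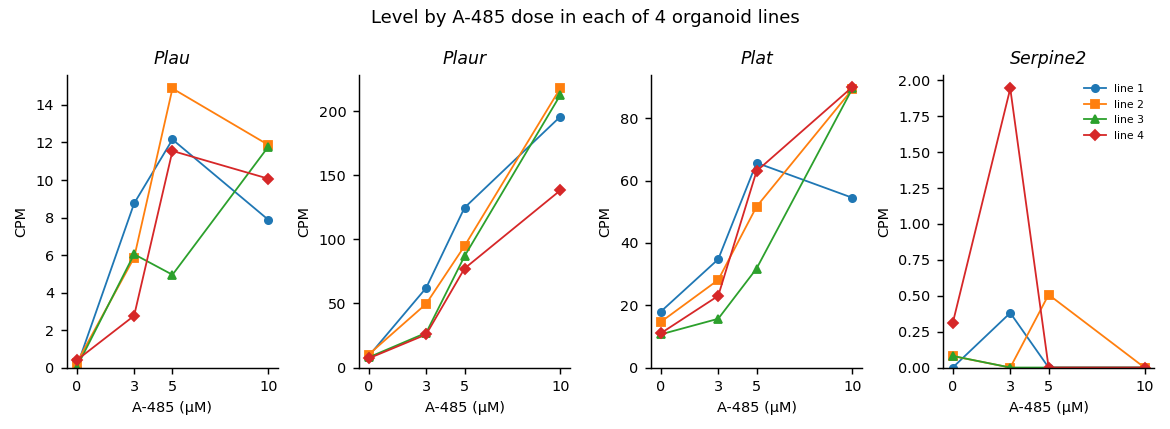
Level of each gene in CPM against A-485 dose in µM for the 4 organoid lines, joined by line; the vertical axes differ between panels and start at 0. Plaur climbs at every dose in all 4 lines, Plau leaves the baseline at 3 µM and from 5 to 10 µM rises in 1 line and falls in 3, Plat climbs with a low library in line 1 at 10 µM, and Serpine2 stays under 2 CPM.

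In tissue the 4 transcripts were scarce, and Plaur in Vil1 villi was the member called between genotypes. The heterozygous mice stood at 2.30, 2.04, 1.46 and 0.968 CPM. The 6 homozygous mice had a lowest value of 3.71, a median of 7.80 and a highest of 13.1 CPM, all above the heterozygous range. The rise was 4.50-fold (log2 2.17 ± 0.37 SE, edgeR adjusted p = 0.000466), and 1.97 to 2.33 when any 1 library was left out. In the same villi Plat stood at 0.843, 0.624, 0.129 and 0.132 CPM in heterozygotes and between 0.268 and 2.23 CPM in homozygotes (log2 1.59 ± 0.67 SE, edgeR adjusted p = 0.071). Plau and Serpine2 were below the filter, with Plau at 0 in 3 of 4 heterozygous libraries. Thus 1 of 2 tested members was called, against 42.5% of genes. The fibroblast sum was 2.62 to 20.1 CPM (median 5.00) in homozygous villi and 10.4 to 15.4 CPM (median 12.6) in heterozygous villi, and immune markers summed to 40.6 to 151 CPM against 206 to 356 CPM.

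Vil1 crypts gave differences in the same direction that did not pass the threshold. Plaur stood at 2.47, 5.48, 0.730 and 0.401 CPM in heterozygotes and at 11.5, 8.24 and 8.60 CPM in homozygotes, with no overlap (log2 2.06 ± 0.83 SE, edgeR adjusted p = 0.114). Plat stood at 0.688, 0.707, 0.487 and 0.241 CPM and at 1.61, 0.977 and 0.728 CPM, also without overlap (log2 1.05 ± 0.46 SE, edgeR adjusted p = 0.125). Plau was at 0.285, 0.0228, 0 and 0.0401 CPM against 0.575, 0.262 and 0.451 CPM (log2 2.22 ± 0.95 SE, edgeR adjusted p = 0.118). Serpine2 was at most 0.616 CPM in all 7 libraries (log2 -0.33 ± 0.41 SE, edgeR adjusted p = 0.588). None of 4 was called, against 29.3% of genes. In edgeR 2 members and 6798 of 16954 genes had an unadjusted p under 0.05, and DESeq2 called 0 members. Immune marker sums ran from 57.9 to 456 CPM in heterozygotes and from 301 to 405 CPM in homozygotes. The part of immune cells in these levels was not tested.

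In Rosa26 crypts mice of 1 genotype differed widely, and none of the 4 genes passed the threshold between genotypes. Plau stood at 0.872, 1.01, 3.82, 2.48 and 0.0841 CPM in heterozygotes and 3.65, 4.23, 12 and 0.129 CPM in homozygotes (log2 1.67 ± 1.10 SE, edgeR adjusted p = 0.304). Plat ran with it, at 1.38, 1.17, 6.66, 3.72 and 0.189 CPM and at 4.47, 4.58, 15.5 and 0.295 CPM (log2 1.31 ± 1.06 SE, edgeR adjusted p = 0.405). Both activators were lowest in the mouse numbered 5 of each genotype and highest in the mouse with the most fibroblast transcripts. Fibroblast sums in the same order were 226, 227, 1040, 473 and 46.8 CPM and 708, 695, 2437 and 52.8 CPM. Over the 9 crypt libraries, as deviations from group means, Plau followed the fibroblast sum with a Pearson correlation of 0.994 and Plat of 0.996. The correlation was 0.860 for Plaur and 0.744 for Serpine2. Other marker lists ran about as closely with the activators, at 0.968 for muscle and 0.970 for fetal-type markers with Plau and at 0.966 and 0.980 with Plat. Plaur followed endothelial (0.950), fetal-type (0.898), immune (0.896) and muscle markers (0.875) more closely than fibroblast markers. These values describe libraries that share dissection and depth, and the part of any of these cell types was not tested.

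Plaur in Rosa26 crypts stood at 2.38, 1.26, 2.89, 3.38 and 1.05 CPM in heterozygotes and 5.19, 12.7, 9.56 and 0.866 CPM in homozygotes. Of the homozygous mice 3 of 4 lay above all heterozygotes, and the fourth, with few fibroblast transcripts, lay below them (log2 1.77 ± 0.67 SE, edgeR adjusted p = 0.0899). Serpine2 overlapped between the genotypes, at 0.820, 0.790, 2.00, 1.15 and 0.57 CPM and 1.97, 1.07, 0.708 and 0.276 CPM (log2 -0.03 ± 0.57 SE, edgeR adjusted p = 0.979). In Rosa26 villi Plaur was 5.99, 3.69, 7.15, 9.40 and 4.45 CPM in heterozygotes and 9.96, 35.6, 14.2, 13 and 1.68 CPM in homozygotes (log2 1.22 ± 0.60 SE, edgeR adjusted p = 0.149). Plat there differed by 1.5 ± 0.63 SE (edgeR adjusted p = 0.0887) and Plau by 0.71 ± 0.70 SE (edgeR adjusted p = 0.467), while Serpine2 was not tested. No member was called in crypts, against 20.2% of genes, nor in villi, against 33.2%. In each, 1 member had an unadjusted p under 0.05 in edgeR, as had 5715 of 15846 genes in crypts and 5949 of 13579 in villi. DESeq2 called 1 member in each, and nothing is read from these counts. Transcripts of a Y-linked gene were present in all 5 heterozygous but in 1 of 4 homozygous crypt libraries, and in 5 of 5 and 2 of 5 villi libraries. With this as a covariate the crypt differences were 1.21 for Plau (edgeR adjusted p = 0.666), 1.32 for Plaur (edgeR adjusted p = 0.424) and 0.84 for Plat (edgeR adjusted p = 0.769).

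**Figure D5:**
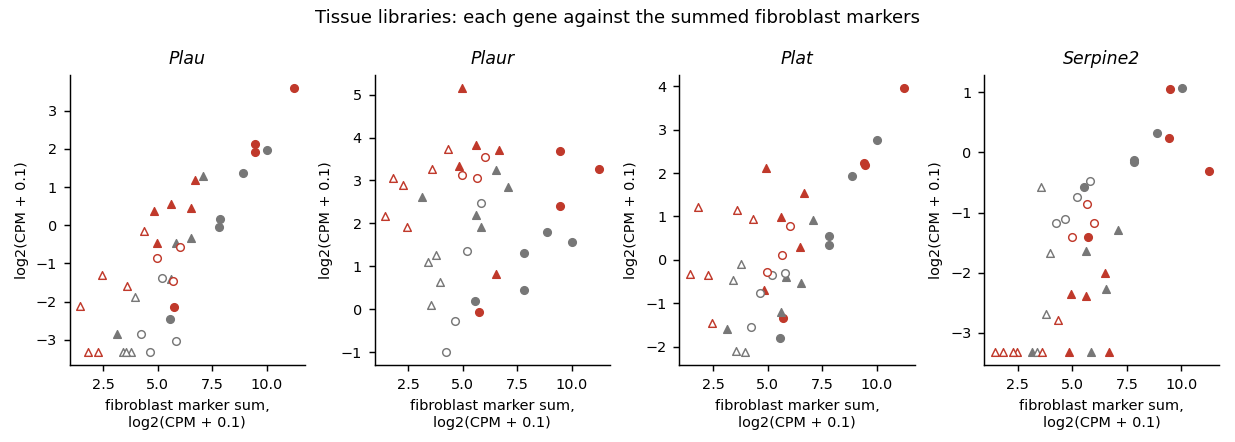
Level of each gene as log2(CPM + 0.1) against the log2 sum of 8 fibroblast markers in the 36 tissue libraries; circles are crypts and triangles villi, filled symbols Rosa26 and open symbols Vil1 mice, red homozygous and grey heterozygous. Plau and Plat rise along the fibroblast axis, with correlations of deviations from group means of 0.877 and 0.779, and Plaur less so, with 0.471.

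The 2 compartments were compared in heterozygous mice. In Rosa26 mice Serpine2 was higher in crypts than in villi, at 0 to 0.308 CPM in villi, and in 5 of 5 animals (log2 3.15 ± 0.80 SE, edgeR adjusted p = 0.0018). Fibroblast sums in the same mice were 46.8 to 1040 CPM in crypts and 8.68 to 134 CPM in villi, and their part was not tested. Plaur was lower in crypts in 5 of 5 animals, with log2 differences of -2.01 to -1.29. Its call (log2 -1.48 ± 0.65 SE, edgeR adjusted p = 0.0478) was lost in 10 of 16 alternatives. With the animal number series as a covariate the edgeR adjusted p was 0.0547, and with the animal as a block 1.88e-05. Plau and Plat were not called. These were 2 of 4 members against 71.6% of genes. In Vil1 heterozygotes none of 4 was called against 64.6% of genes. In edgeR 0 members and 12089 of 17821 genes had an unadjusted p under 0.05, and DESeq2 called 0 members. Plaur there differed by 0.43 ± 0.61 SE (edgeR adjusted p = 0.547).

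The genotype effect was compared between villi and crypts as well. In Rosa26 mice no member of 4 was called against 11.5% of genes. In edgeR 0 members and 4683 of 16495 genes had an unadjusted p under 0.05, and DESeq2 called 0 members. In Vil1 mice 1 of 4 was called against 15.5% of genes. It was Serpine2 (log2 -3.99 ± 1.27 SE, edgeR adjusted p = 0.0416), on 19 reads in the heterozygous and 1 read in the homozygous villi. With the animal as a block the value was -2.96 (edgeR adjusted p = 0.299), and 15 of 21 alternatives lost the call. For Plaur the effects in villi and crypts of Vil1 mice differed by 0.15 ± 0.83 SE.

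Other genes of the pathway were taken from lists of 63 genes drawn up by function, of which 13 form the plasminogen core. Plasminogen itself (Plg) was near absent, with a group mean of at most 0.451 CPM, and was tested nowhere. Among binding partners, annexin A2 (Anxa2), which with S100a10 binds plasminogen at the cell surface, rose in the first organoid set (log2 0.72 ± 0.11 SE, edgeR adjusted p = 0.00256) and against flox/+ in the second (log2 0.97 ± 0.09 SE, edgeR adjusted p = 1.05e-06). Anxa2 also rose in crypts of Vil1 homozygotes (log2 1.59 ± 0.13 SE, edgeR adjusted p = 0.000136) and of Rosa26 homozygotes (log2 1.07 ± 0.27 SE, edgeR adjusted p = 0.0252). With A-485 it rose by 0.61 ± 0.12, 1.56 ± 0.13 and 2.27 ± 0.13 (log2, SE) at 3, 5 and 10 µM (edgeR adjusted p = 0.00215, 2.63e-08 and 1.15e-10). S100a10 rose at all 3 doses too, by 0.62 ± 0.18, 1.04 ± 0.18 and 1.71 ± 0.19 (edgeR adjusted p = 0.0228, 0.000134 and 2.8e-07). Its call at 3 µM was lost in 5 of 13 alternatives (largest adjusted p = 0.0736). Plgrkt, a transmembrane plasminogen receptor, moved in both directions. It rose in flox/flox organoids of the second set against flox/+ (log2 0.26 ± 0.09 SE, edgeR adjusted p = 0.0238), a call lost in 5 of 13 alternatives, and against CreER-only (log2 0.42 ± 0.09 SE, edgeR adjusted p = 0.00124). In flox/flox spheroids with 4-OHT it fell (log2 -1.13 ± 0.25 SE, edgeR adjusted p = 0.00318). With A-485 it fell as well, with a log2 change of -0.68 ± 0.14 SE at 5 µM and -1.36 ± 0.14 SE at 10 µM (edgeR adjusted p = 0.000617 and 2.29e-07).

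Serpinb2, an inhibitor of the activators, was not called between genotypes in Rosa26 crypts, with 10.2 CPM on average in homozygotes against 0.561 CPM in heterozygotes (log2 4.26 ± 1.42 SE, edgeR adjusted p = 0.0625). In cultures its group means were at most 0.323 CPM.

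Serpinf2, which encodes alpha2-antiplasmin, the main inhibitor of plasmin itself, was singled out after its values were seen. Its adjusted p-values therefore give its place in each fit of all genes and are no independent evidence. Serpinf2 was low but measurable in controls and nearly lost in every deleted group, with no overlap in any of these comparisons. In the first organoid set it stood at 4.20, 3.497 and 4.81 CPM with DMSO and 0.155, 0.0607 and 0.0673 CPM with 4-OHT (log2 -5.40 ± 0.37 SE, edgeR adjusted p = 0.000263). In the second set it averaged 0.290 CPM in flox/flox organoids against 3.80 in flox/+ (log2 -3.68 ± 0.37 SE, edgeR adjusted p = 1.94e-06). In flox/flox spheroids 4-OHT left 4 reads over 6 libraries, where DMSO gave 683. In flox/+ spheroids it averaged 5.95 CPM with 4-OHT and 7.35 CPM with DMSO, and the responses differed between genotypes (log2 -6.77 ± 1.10 SE, edgeR adjusted p = 0.00412). In tissue Serpinf2 fell by 4.10 and 3.38 on the log2 scale in Rosa26 crypts and villi (edgeR adjusted p = 0.000858 and 0.000601). In Vil1 crypts and villi it fell by 4.24 and 3.64 (edgeR adjusted p = 0.000867 and 0.000452).

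A-485 lowered Serpinf2 as well. The 4 lines stood at 4.38, 1.92, 6.29 and 6.65 CPM with DMSO, at 0 to 0.766 CPM with 3 µM and at 0 to 0.907 CPM with 5 µM (edgeR adjusted p = 0.0177 and 0.00527). At 10 µM 2 reads remained in all 4 libraries, against 245 with DMSO (edgeR adjusted p = 0.000166). The call at 3 µM was lost in 3 fits that left out 1 library, with edgeR adjusted p of at most 0.0586. No other of its 13 calls was lost in any alternative.

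Over the 63 listed genes, 19 rose and 3 fell of 40 tested in the first organoid set, or 55% called against 35.4% of all genes, and the median log2 change was 0.36 beside 0.0278 over all genes. With 10 µM A-485 23 rose and 9 fell of 39 tested, or 82.1% against 62%, with a median of 1.05 beside -0.0488. In Vil1 villi 18 rose and 10 fell of 39 (71.8% against 42.5%, median 0.20 beside 0.0508), and in Vil1 crypts 7 rose and 11 fell of 45 (40% against 29.3%, median -0.03 beside 0.0133). In Rosa26 crypts 8 rose and 7 fell of 51 (29.4% against 20.2%, median 0.55 beside 0.0439), and in Rosa26 villi 10 rose and 6 fell of 46 (34.8% against 33.2%, median 0.16 beside -0.0054). The integrin subunit Itgav, which with its partners binds vitronectin and joins the urokinase receptor at adhesion sites, rose in the first organoid set (log2 1.15 ± 0.10 SE, edgeR adjusted p = 0.000488) and in all 4 tissue comparisons of genotype, by 0.77 to 1.04. Serpinb5 (maspin), a serpin of epithelial cells, rose in the first organoid set (log2 1.85 ± 0.21 SE, edgeR adjusted p = 0.00102), in Vil1 crypts (log2 3.79 ± 0.27 SE, edgeR adjusted p = 0.000136) and in Rosa26 crypts (log2 1.66 ± 0.42 SE, edgeR adjusted p = 0.0232). Mmp7 (matrilysin), a Paneth cell protease, fell in Rosa26 crypts (log2 -1.14 ± 0.24 SE, edgeR adjusted p = 0.0116), in Vil1 crypts (log2 -1.58 ± 0.31 SE, edgeR adjusted p = 0.00973) and with 10 µM A-485 (log2 -4.86 ± 0.28 SE, edgeR adjusted p = 2.19e-10). The Rosa26 crypt calls of Anxa2, Itgav, Serpinb5 and Mmp7, and that of Itgav in Rosa26 villi, were each lost in at least 1 alternative setting. Itgav, Serpinb5 and Mmp7, and St14 below, are named because they were called in the most comparisons of their lists. Their calls in several comparisons are thus part of that choice and a description only.

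Of the other listed genes, the most abundant per kilobase were Spint2 among membrane proteases and their inhibitors, Itgb1 among clearance receptors and partners, and Serpinb1a among the other serpins. St14 (matriptase), a membrane serine protease of epithelia, and Spint2, an inhibitor of such proteases, rose in villi and were not called in crypts. In Rosa26 villi St14 rose by 0.80 ± 0.13 (log2, SE; edgeR adjusted p = 0.00096) and Spint2 by 0.62 ± 0.12 (edgeR adjusted p = 0.00317). The rise in Vil1 villi was 0.70 ± 0.14 for St14 (edgeR adjusted p = 0.00127) and 0.81 ± 0.13 for Spint2 (edgeR adjusted p = 0.000291). In crypts of either driver their log2 differences lay between -0.05 and -0.01, and the effects in villi and crypts differed for St14 (edgeR adjusted p = 0.0111 in Rosa26 and 0.0155 in Vil1 mice) and for Spint2 (edgeR adjusted p = 0.0239 and 0.00339). In the first organoid set St14 rose by 0.45 ± 0.08 (edgeR adjusted p = 0.00479), and Spint2 by 0.43 ± 0.14 (edgeR adjusted p = 0.0476), a call lost in 7 of 11 alternatives. The integrin subunit Itgb1 rose in Vil1 villi (log2 0.55 ± 0.15 SE, edgeR adjusted p = 0.0114) and at every A-485 dose, by 0.52 ± 0.11, 1.05 ± 0.11 and 1.81 ± 0.11 (edgeR adjusted p = 0.00247, 4.65e-07 and 2.76e-10). Serpinb1a, an inhibitor of leukocyte proteases, fell in Vil1 crypts (log2 -0.58 ± 0.14 SE, edgeR adjusted p = 0.0177), a call lost in 2 of 11 alternatives. With A-485 it was highest at 5 µM (log2 1.87 ± 0.13 SE against DMSO, edgeR adjusted p = 5.52e-09), and its rise at 3 and 10 µM was 0.84 ± 0.13 SE and 0.95 ± 0.13 SE (largest edgeR adjusted p = 0.000175).

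Over the 21 group means, each centred within its set, Plau and Plaur correlated at 0.843, Plau and Plat at 0.763 and Plaur and Plat at 0.676. Serpine2 gave 0.296 with Plau, -0.169 with Plaur and 0.12 with Plat. Among 10727 genes of sufficient level, those most like Plau were Myof (0.947), Npnt (0.943) and Wdfy3 (0.933), and those most like Plaur were Btc (0.963), Slc4a11 (0.956) and Cdkl2 (0.950). Hspa2 (0.950), S100a16 (0.941) and Kif3a (0.934) were nearest to Plat, and Bod1l (0.948), Ogdhl (0.941) and Zfp109 (0.923) to Serpine2. These are Pearson correlations over means that share libraries and groups, given as a description. Over the 92 libraries the same genes correlated less, from 0.301 for Bod1l with Serpine2 to 0.848 for Slc4a11 with Plaur, and at 0.529 for Wdfy3 with Plau. In cultures, as deviations from group means over 56 libraries, Plaur followed a list of 5 fetal-type epithelial markers (0.795) and ran against a list of 4 crypt markers (-0.751). The fibroblast sum had -0.042 with Plaur, 0.098 with Plau, 0.207 with Plat and 0.441 with Serpine2 there.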

How the data were processed

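RNA-seq of poly-A transcripts was deposited by the authors as tables of raw read counts per gene, with gene coordinates and lengths. Reads were aligned with HISAT2 2.0.5 to GRCm38 (mm10), per the submitters' processing notes; the library kit was directional, per the labels' protocols. The counting program, annotation and strand setting are not given in the sources used here. Groups came from the labels, and all 4 tables were mapped to 92 libraries in 21 groups. No 2 libraries of a group agreed within sampling noise: over 164 pairs the chi-square per degree of freedom of their counts was at least 6.26.

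In R 4.3.3, genes were filtered with filterByExpr, scaled with TMM and tested with edgeR 4.0.16 (quasi-likelihood, robust) on the deposited counts in 23 comparisons, with Benjamini-Hochberg adjustment over all tested genes and a threshold of 0.05. The SE is the log2 fold change over the square root of F. CPM uses the same scaling within a set, correlations use log2 CPM with a prior count of 2, and plots add 0.1 CPM. Alternatives were DESeq2 1.42.0, its size factors, no low-count filter, covariates, replicate blocks and leaving out each library. On simulated counts for 15297 genes of the first organoid set, 59.8% of genes changed by log2 1 and 94.8% of those changed by log2 2 were recovered. For 3 µM A-485 these shares were 45.3% and 77.5% of genes among 13724, and for Vil1 villi 49.0% and 91.2% among 15107. Of the calls, 7.975% were false in the first organoid set, 4.8% for 3 µM A-485 and 6.475% for Vil1 villi. Each simulation changed 200 genes, far fewer than the real fits called, so these shares may not carry over to the data.

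The members and gene lists were chosen with earlier results of these data known. Genes named beside the members are Eif4g2, 5 genes of the plasminogen core (1 further gene of that list is not reported here and was left out of its counts), the most abundant and the most often called gene of the other lists, and the 3 genes most like each member; Serpinf2 falls outside this rule. Organoid and spheroid libraries that share a line, and crypts and villi that share an animal, are paired by the labels. Their deviations from group means correlated from 0.318 to 0.501 in the first organoid set, 0.383 to 0.783 in flox/flox and 0.628 to 0.858 in flox/+ spheroids, and 0.055 to 0.352 with A-485. For crypts and villi of 1 animal they ran from -0.002 to 0.166 and 0.043 to 0.281 in Rosa26 heterozygous and homozygous mice and from 0.047 to 0.297 and -0.015 to 0.24 in Vil1 mice. The line block raised the count of called genes in flox/flox spheroids from 2864 to 4649. Where the labels name no separate animals or cultures, p-values measure the spread between these samples only. The same holds for spheroid lines that share the number in their names. Marker sums are over 8 fibroblast, 10 immune, 8 epithelial, 6 endothelial, 5 fetal-type, 4 crypt, 4 villus and 4 muscle genes.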

Additional observations from a re-analysis of the deposited data

Results flagged for a closer look

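Single libraries stood far from the rest of their group by Dixon's criterion in 12 of 71 sets of 1 gene in 1 group. The criterion's rate of about 1 in 20 holds for normally distributed values. Some of these sets hold few reads, and the share over all genes is not given here, so nothing is read from the number flagged. For Plau the flagged libraries were CreER-only organoid replicate 2 at 1.57 CPM (others 0.879 to 0.980), Rosa26 heterozygous villi replicate 3 at 2.34 CPM (others 0.0384 to 0.699), Vil1 heterozygous crypts replicate 1 at 0.285 CPM on 12 reads, and Vil1 heterozygous villi replicate 3 at 0.172 CPM on 4 reads with the others at 0. In Rosa26 heterozygous villi replicate 3 Plat also stood apart, at 1.79 CPM (others 0.230 to 0.667). For Plaur the flag was flox/+ organoid replicate 4 at 22.1 CPM, just under a tight range of 24.5 to 24.6. With 10 µM A-485 Plat was 54.5 CPM in line 1, the Eif4g2(+/+) line, beside 89.4 to 90.1 in the flox/flox lines. With DMSO, 3 µM and 5 µM line 1 held the most Plat of the 4 lines, at 17.9, 34.8 and 65.7 CPM. Line and genotype cannot be told apart here.

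Serpine2 stood apart in spheroids. Line 2 of the flox/+ spheroids held 19.8 CPM with DMSO (others 2.33 to 6.13) and 28.0 CPM with 4-OHT (others 2.66 to 9.96), and this line had fibroblast sums of 255 and 196 CPM, the highest of its group in both conditions. Line 4 of the flox/flox spheroids held 38.0 CPM with 4-OHT (others 8.37 to 15.7), with a fibroblast sum of 1.40 CPM, within the 0.420 to 7.56 CPM of its group. The other Serpine2 flags rest on few reads: 0.507 CPM on 6 reads in A-485 5 µM replicate 2 and 0.0447 CPM on 1 read in Vil1 homozygous villi replicate 1.

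Some genotype effects differed between compartments or genotypes by the test of the difference itself. The effect on Serpine2 in Vil1 villi minus that in crypts was -3.99, a value that rests on 20 reads in villi and was lost with the animal block. For Anxa2 in Vil1 mice the same difference was -1.38 (edgeR adjusted p = 0.00183), with effects of 1.59 in crypts and 0.19 in villi. Villi minus crypts was 0.91 for St14 and 0.77 for Spint2 in Rosa26 mice, lost in 1 and 3 of 24 alternatives, and 0.76 and 0.86 in Vil1 mice. It was 1.78 for Mmp7 in Rosa26 mice and -1.62 for Serpinb5 in Vil1 mice, the last lost in 8 of 21 alternatives. Serpinf2 gave -6.77 between flox/flox and flox/+ spheroids.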

How the results depend on the processing

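The 81 member results were recomputed 1243 times, of which 1119 kept direction and side of the threshold, 48 lost a call, 32 gained one and 44 changed sign. None of the 29 called results changed sign, and 21 were called in every alternative. The 29 include calls of Plau, Plaur and Serpine2 from spheroid comparisons that are treated as part of the choice of the members. These counts are therefore a description, and nothing is read from them. Serpinf2, singled out after its values were seen, kept 12 of 13 calls throughout, which is a description too. The cause of the changes below was not tested, except that a left-out library leaves fewer samples.

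Replicate numbers or lines as a block changed these values. Signs turned for Plaur between Vil1 heterozygous compartments (-0.04), Plau in the Rosa26 difference of effects (0.11), Plaur in that of Vil1 mice (-0.32), Plat between spheroid genotypes with 4-OHT (0.02) and Plau from 5 to 10 µM A-485 (0.00). Members called with the replicate block were 1 in Rosa26 villi, 0 in the Vil1 difference of effects, 4 in the first organoid set, 1 against flox/+ and 0 against CreER-only organoids, 0 between spheroid genotypes with 4-OHT, 3 in the spheroid difference of responses and 2 from 5 to 10 µM. Nothing is read from these counts of members. Genes called with it were 772 in the Rosa26 difference of effects, 30 between organoid controls, 4649 and 1 for 4-OHT in flox/flox and flox/+ spheroids, 140 between spheroid genotypes and 2758 in their difference. Between mice or cultures that share only a number, the correlations of paired deviations ran from -0.467 to 0.604, and those numbers were not taken as pairs.

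DESeq2 called 1 member in Rosa26 crypts, 1 in Rosa26 villi, 2 in Vil1 villi, 2 between spheroid genotypes with 4-OHT and 1 in their difference of responses, and 2884, 148 and 603 genes in the Rosa26 difference, between organoid controls and in the spheroid difference. Without the low-count filter the members called were 2 in Vil1 villi, 1 between Rosa26 compartments, 0 in the Vil1 difference and 0 between spheroid genotypes, and the genes called 1221, 60 and 123 in the 3 comparisons named for DESeq2. The animal number series left 1 member between Rosa26 compartments. Y-linked transcripts as a covariate left 2967 genes in Rosa26 villi and turned Serpine2 in Rosa26 crypts to 0.96. With only the 2 groups compared, 1 member was called against CreER-only organoids, 880 genes between spheroid genotypes and 2229 from 3 to 5 µM. Adding the A-485 libraries gave 3079 genes in the first organoid set. The share of all genes is not given for most of these settings, so nothing is read from their counts of members.

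Leaving out 1 library gave these lowest and highest log2 values. Plat ran from -0.38 to 1.33 in the Rosa26 difference, -0.27 to 0.17 between spheroid genotypes, -0.36 to 0.18 in flox/+ and -0.09 to 0.38 in flox/flox spheroids, and -0.03 to 0.51 in their difference. Plau ran from -0.30 to 0.13 from 5 to 10 µM, -1.40 to 0.11 in the Rosa26 difference, -0.85 to 4.52 between Vil1 compartments, -1.65 to 3.67 in the Vil1 difference and -0.30 to 0.05 between organoid controls. Plaur ran from -1.03 to 0.03 in the Rosa26 and -0.78 to 0.50 in the Vil1 difference, -0.48 to 0.79 between Vil1 compartments and -0.47 to 0.02 between DMSO spheroids. Serpine2 ran from -0.60 to 0.35 in Rosa26 crypts and -0.51 to 1.33 in flox/+ spheroids. Genes called ran from 1937 to 4732 in Rosa26 crypts, 1079 to 3068 in the Rosa26 difference, 3223 to 5978 in Vil1 crypts, 1456 to 3425 in the Vil1 difference, 1 to 32 between organoid controls and 131 to 362 in the spheroid difference. Members called ran from 0 to 1 in Rosa26 crypts, Vil1 crypts, Vil1 compartments and the Vil1 difference, 0 to 2 in Rosa26 villi and between spheroid genotypes, 1 to 2 between Rosa26 compartments, in Vil1 villi and against CreER-only organoids, 1 to 3 against flox/+ and 2 to 4 in the first organoid set. These member counts are a description, and nothing is read from them.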
